A study of Mus musculus with 6 samples.

Results

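The complement system was examined at the RNA level in mouse brain through 8 genes out of 27378 listed in each library. They were taken by symbol and encode recognition molecules (C1qa, C1qb and C1qc), central components (C4b and C3), receptors for cleaved fragments (C3ar1 and C5ar1) and an inhibitor (Serping1). RNA sequencing was done on whole brain of male C57BL/6J mice, an inbred laboratory strain, of WT genotype. The control group (3 libraries) received sterile distilled water through the nose over 28 days, and the PS group (3 libraries) received polystyrene nanoplastic by the same route and for the same time. The age of the mice and the size and dose of the particles are not given in the sources used here. The labels do not say whether each library is a separate mouse, so p-values measure the spread between these libraries, which may be partly technical.

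Complement is a cascade of blood and tissue proteins that tags surfaces for removal. In the classical pathway C1q binds a target, its associated proteases cleave C4 and C2, and the resulting enzyme cleaves C3, whose fragments coat the surface or act on receptors. In brain, microglia are the main source of C1q, astrocytes and other cells make C4 and C3, and complement-tagged synapses can be engulfed by microglia through the receptor CR3. All levels below are FPKM (fragments scaled to gene size and library depth), so levels can be compared between genes. Whole-tissue RNA cannot tell fewer cells of a type from less RNA per cell.

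C1qa, C1qb and C1qc are neighbours on chromosome 4 in the order C1qb, C1qc, C1qa. Promoter sequences for 5 of the 8 members were matched by symbol in RefSeq tables of build GRCm38.p6, each 250 bases before to 50 after the annotated start. Those of C1qb and C1qc are shown because these chains of the same complex had similar levels in each library, and that of C3 because its level was low although it feeds all pathways. Capitals mark matches on either strand to GAGGAA (the core of the site of PU.1, a factor of myeloid cells), TTGCNNAA (C/EBP) and TATAAA (a core promoter element).
C1qb (chr4:136886151-136886450, minus strand): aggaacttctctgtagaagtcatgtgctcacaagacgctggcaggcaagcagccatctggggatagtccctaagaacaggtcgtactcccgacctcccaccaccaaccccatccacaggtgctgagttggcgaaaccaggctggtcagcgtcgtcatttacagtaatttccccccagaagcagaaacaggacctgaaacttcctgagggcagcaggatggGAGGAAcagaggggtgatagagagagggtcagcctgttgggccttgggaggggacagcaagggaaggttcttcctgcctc
C1qc (chr4:136892865-136893164, minus strand): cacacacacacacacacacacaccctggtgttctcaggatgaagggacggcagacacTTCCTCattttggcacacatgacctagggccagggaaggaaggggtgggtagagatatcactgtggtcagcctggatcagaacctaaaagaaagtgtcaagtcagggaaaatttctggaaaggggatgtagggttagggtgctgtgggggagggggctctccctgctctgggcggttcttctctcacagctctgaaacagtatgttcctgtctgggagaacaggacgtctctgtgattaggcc
C3 (chr17:57228087-57228386, minus strand): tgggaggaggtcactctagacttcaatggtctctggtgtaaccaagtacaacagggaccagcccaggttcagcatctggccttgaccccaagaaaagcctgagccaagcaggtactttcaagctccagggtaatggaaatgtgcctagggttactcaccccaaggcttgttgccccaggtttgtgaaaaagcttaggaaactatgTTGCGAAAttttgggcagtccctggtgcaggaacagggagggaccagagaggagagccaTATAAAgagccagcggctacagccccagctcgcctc
C1qb held GAGGAA starting 30 bases before the start, and C1qc held its reverse complement TTCCTC starting 193 bases before. The C3 window held the C/EBP match TTGCGAAA starting 45 bases before the start, and a TATAAA starting 14 bases after the start. Of 32851 mouse promoters of this length, 28.3% held GAGGAA, 10.8% TTGCNNAA and 13.6% TATAAA. No capitals overlap between motifs in these windows, and a match is a description of letters only.

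The 3 C1q chains were by far the most abundant members, and the groups overlapped for each of them. Over the 6 libraries C1qa averaged 42.0 FPKM, C1qc 40.17 and C1qb 37.4, which placed them above 93.7 to 94.6% of the genes detected. Serping1 averaged 7.168 and C4b 4.415. C3ar1, C5ar1 and C3 averaged 0.6281, 0.4178 and 0.3713, near the middle of the detected genes. C1qb stood above Serping1, Serping1 above C4b and C4b above C3ar1 in 6 of 6 libraries. At the bottom the order was not fixed: C5ar1 exceeded C3 in 3 of 3 control and 0 of 3 PS libraries.

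**Figure D1:**
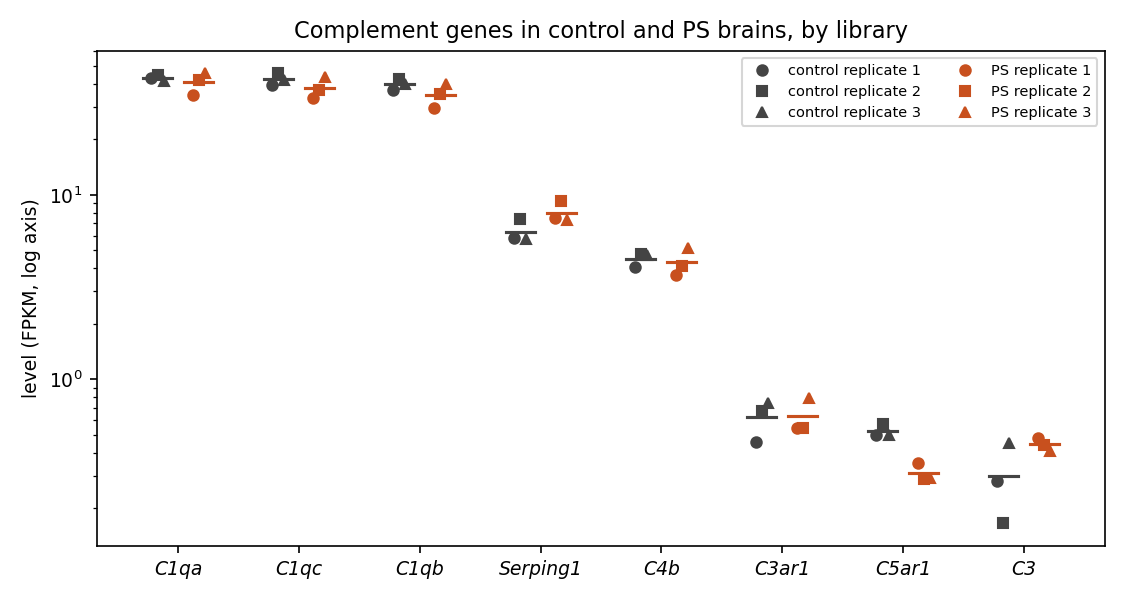
Level in FPKM (log axis) of the 8 complement genes in each control (dark) and PS (orange) library, with short lines at the group means and symbols for replicate numbers. The C1q chains lie between 29.4 and 45.7 FPKM, and the groups do not overlap for C5ar1 only.

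Each comparison of PS with control used limma on log2(FPKM + 1), a scale that understates the change of low genes, with Benjamini-Hochberg adjustment over all tested genes. Of 12229 genes with a mean of at least 1 FPKM, 0.164% were called at an adjusted p under 0.05, that is 20 genes (48 with the replicate number as a block). Among them 5.94% had an unadjusted p under 0.05, and 11.3% had groups that did not overlap. Of the 5 members that passed this filter, 0 were called by limma or by limma-voom on recovered reads, and 1, Serping1, had an unadjusted p under 0.05. The other 3 members, C3, C3ar1 and C5ar1, were under the filter. In a fit of all 26556 genes detected, in which 0.00377% were called, 5.46% had an unadjusted p under 0.05 and 9.89% did not overlap, 0 of these 3 were called by limma or limma-voom. Of these, 1, C5ar1, had an unadjusted p under 0.05. The tested members had a median log2 fold change of -0.087 against 0.003 for all tested genes.

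C1qa, C1qb and C1qc encode the A, B and C chains that assemble into the recognition molecule of the classical pathway. C1qa stood at 43.19, 44.94 and 41.39 FPKM in control replicates 1, 2 and 3 and at 34.65, 42.14 and 45.66 in PS replicates 1, 2 and 3. The PS libraries held both the lowest and the highest C1qa level. Its log2 fold change was -0.087 (SE 0.095, 95% interval from -0.302 to 0.127, limma adjusted p = 0.976). C1qb stood at 37.1, 42.71 and 39.93 FPKM in control and 29.44, 35.23 and 39.998 in PS (log2 fold change -0.20, SE 0.105, interval from -0.434 to 0.039, limma adjusted p = 0.868). C1qc stood at 39.41, 45.68 and 41.96 in control and 33.42, 36.9 and 43.68 in PS (log2 fold change -0.16, SE 0.098, interval from -0.38 to 0.063, limma adjusted p = 0.921). In all 3 chains PS replicate 1 was the lowest of the 6 libraries, while PS replicate 3 lay within or above the control range. Without PS replicate 1 the log2 fold changes were 0.023, -0.084 and -0.073 for C1qa, C1qb and C1qc. Without PS replicate 3 they were -0.171, -0.299 and -0.261, and the intervals of C1qb (from -0.526 to -0.071) and C1qc (from -0.461 to -0.06) excluded 0 before adjustment (limma adjusted p = 0.927 for both). With the replicate number as a block the C1qb interval also excluded 0 before adjustment (from -0.368 to -0.027, limma adjusted p = 0.542). Those of C1qa and C1qc included 0 in that fit. The spread was wider in PS, with a coefficient of variation of 13.8, 15.2 and 13.7% for C1qa, C1qb and C1qc against 4.11, 7.02 and 7.45% in control. With 1301 to 2011 reads per library behind each chain, counting alone gives 2.3 to 2.5%.

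The chains varied together between libraries. C1qb was below C1qa and below C1qc in 6 of 6 libraries. The log2 ratio of C1qb to C1qc was -0.085 ± 0.013 (SD, n = 3) in control and -0.126 ± 0.058 (n = 3) in PS. That of C1qb to C1qa was -0.219, -0.074 and -0.052 in control replicates 1 to 3 and -0.235, -0.258 and -0.191 in PS replicates 1 to 3. The 2 groups overlapped for this ratio through control replicate 1. C1qa exceeded C1qc in 1 of 3 control and 3 of 3 PS libraries. These ratios are given as values, with no test.

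Microglial identity genes were expressed in all libraries and split in direction. All 16 listed microglial markers were tested, 0 were called by limma, 8 were lower and 8 higher, and their median log2 fold change was 0.034. Of the 5 with an unadjusted p under 0.05, Aif1 and Ctss had negative and Cx3cr1, P2ry13 and Trem2 positive log2 fold changes. The mean log2 level of the 3 chains minus that of the 16 markers was 2.30, 2.36 and 2.24 in control replicates 1, 2 and 3. It was 1.996, 2.04 and 2.20 in PS replicates 1, 2 and 3. Every PS value of this difference lay below every control value, by 0.22 between the means, with SDs of 0.059 in control and 0.108 in PS (n = 3 each). C1q was 0.15 lower and the markers 0.075 higher on average, and each of these means overlapped between the groups. The largest log2 fold changes among the markers were those of P2ry13 (0.611), Cx3cr1 (0.38) and Trem2 (0.298), beside the median of 0.034. The higher marker mean in PS rests on these 3. The lack of overlap of the difference depends on them too. The members were chosen with earlier results known, so no test is given for the difference. Cx3cr1, the fractalkine receptor, was at 7.639, 9.337 and 8.464 FPKM in control and 10.93, 11.89 and 11.11 in PS (log2 fold change 0.38, limma adjusted p = 0.22). P2ry13, a purine receptor, was at 1.535, 2.258 and 2.954 in control and 4.012, 4.256 and 3.42 in PS (log2 fold change 0.61, limma adjusted p = 0.358). These 2 markers, named after their values were seen, stood higher in every PS library than in any control library without passing the adjusted threshold. Aif1 went the other way without overlap, at 2.843, 3.074 and 3.117 in control and 2.017, 2.46 and 2.723 in PS (limma adjusted p = 0.751). In all, 3 of the 16 markers did not overlap between groups, beside 11.3% of all tested genes.

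**Figure D2:**
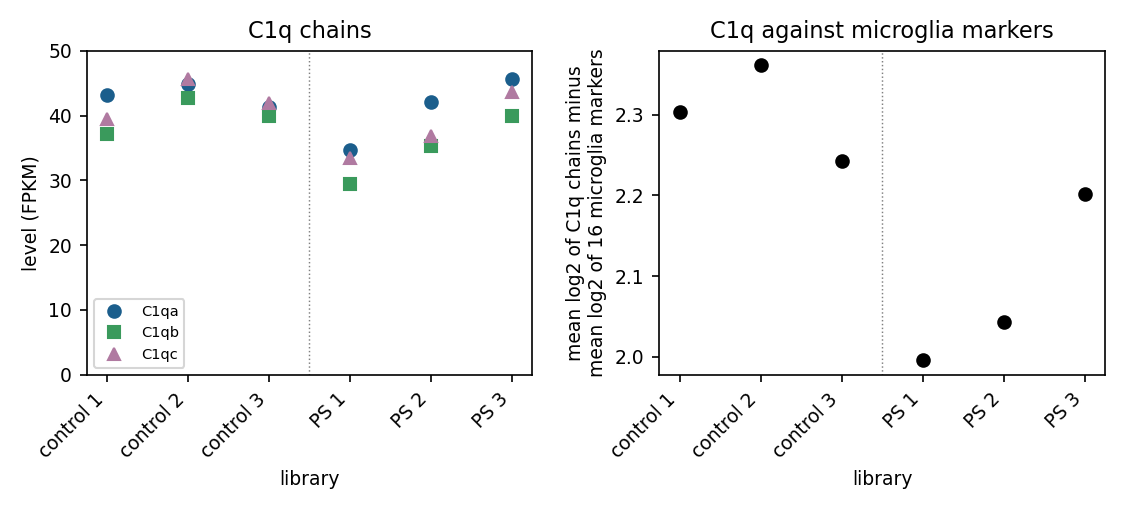
Left, FPKM of the 3 C1q chains in each library; right, the mean log2(FPKM + 1) of the chains minus that of 16 microglial markers. The chains move together and overlap between groups, while the difference on the right runs from 2.24 to 2.36 in control and from 1.996 to 2.20 in PS.

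C4b encodes the C4 component cleaved after C1q has bound. It stood at 4.091, 4.757 and 4.714 FPKM in control and 3.691, 4.098 and 5.138 in PS replicates 1, 2 and 3. As with C1q, PS replicate 1 was lowest, and for C4b PS replicate 3 was the highest of all. Its log2 fold change was -0.063 (SE 0.105, interval from -0.301 to 0.175, limma adjusted p = 0.983), and it turned to 0.021 without PS replicate 1 and was -0.173 without PS replicate 3. C4b has a near-identical copy, C4a, which was looked for by symbol and had no match among the genes listed in the libraries. Of the 50-base words of annotated C4b transcripts, 34.6% also occur in C4a, so the assignment of reads to C4b is uncertain. The other 7 members shared 0% of such words with any other annotated gene.

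C3, the component on which the pathways meet, was low in these brains. It stood at 0.281, 0.166 and 0.451 FPKM in control, from 58, 34 and 93 reads, and at 0.48, 0.443 and 0.408 in PS, from 100, 93 and 85 reads. The PS libraries were alike, whereas control replicate 3 lay among them and control replicates 1 and 2 below. The coefficient of variation was 47.8% in control, against 12.7% from counting alone. In PS it was 8.09%, below the 10.4% that counting alone gives. The log2 fold change was 0.16 (SE 0.08, interval from -0.039 to 0.354, adjusted p = 0.919 by limma with no filter). Leaving out control replicate 2 gave 0.082, and leaving out control replicate 3 gave 0.24 (interval from 0.101 to 0.378, adjusted p = 0.324). Limma-voom on the recovered reads, which adds no pseudocount of that size, gave 0.67 (interval from -0.248 to 1.594, adjusted p = 0.812).

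C3ar1 and C5ar1 encode the receptors for C3a and C5a, the small fragments that attract and activate immune cells. C3ar1 was at 0.457, 0.676 and 0.745 FPKM in control and 0.546, 0.548 and 0.796 in PS, from 78 to 137 reads. The groups overlapped throughout, with a log2 fold change of 0.004 (SE 0.095, interval from -0.229 to 0.237, adjusted p = 1.0 by limma with no filter). C5ar1 was at 0.5, 0.575 and 0.501 FPKM in control and 0.35, 0.289 and 0.292 in PS. Every PS library was below every control library, as for 5.77% of all detected genes. The reads behind these values were 51, 58 and 51 in control and 36, 30 and 30 in PS. The ratio of the summed reads at equal depth was 0.591, with an exact binomial 95% interval from 0.454 to 0.766 that covers counting error only. The log2 fold change was -0.22 (SE 0.038, interval from -0.311 to -0.127, unadjusted p = 0.00113, adjusted p = 0.437 by limma with no filter), and -0.75 by limma-voom (adjusted p = 0.232), which called 0.102% of the genes in that fit. C5ar1 did not pass the threshold. Its coefficient of variation, 8.22% in control and 11.0% in PS, was below the 13.7 and 17.7% that counting alone gives, so the spread seen between libraries is smaller than the counting error.

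**Figure D3:**
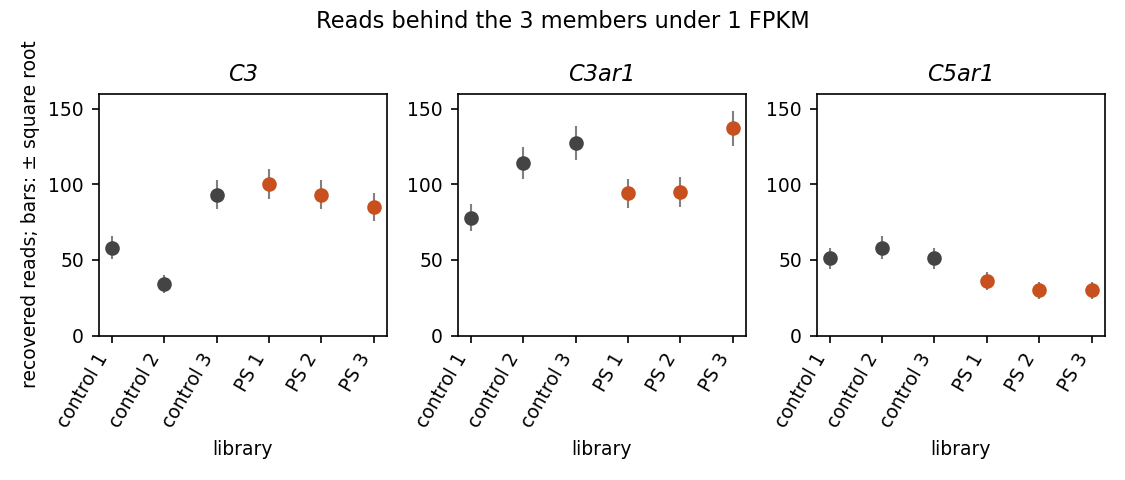
Recovered reads in each library for C3, C3ar1 and C5ar1, the members under 1 FPKM, with bars of plus and minus the square root of the count. C5ar1 has 51 to 58 reads in control (dark) and 30 to 36 in PS (orange), C3 has 34 to 93 and 85 to 100, and C3ar1 overlaps throughout.

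Serping1 encodes the C1 inhibitor, which blocks the proteases bound to C1q, and had the only positive log2 fold change among the 5 tested members. It stood at 5.809, 7.381 and 5.791 FPKM in control and 7.453, 9.226 and 7.347 in PS. PS replicates 1 and 3 lay beside control replicate 2, and PS replicate 2 above all. Each PS library was above the control library of the same number, though the labels do not link these numbers. The ratio of the means was 1.27, and the log2 fold change was 0.30 (SE 0.109, interval from 0.053 to 0.545, unadjusted p = 0.0227, limma adjusted p = 0.738). With the replicate number as a block the SE was 0.067 and the limma adjusted p = 0.149. It was not called, except with limma's sample weights (0.39, adjusted p = 0.0275), a fit that called 632 of the 12229 tested genes. Without PS replicate 2 the log2 fold change was 0.20 (interval from -0.045 to 0.453). The interval also included 0 without control replicate 1 (from -0.039 to 0.538) and without control replicate 3 (from -0.024 to 0.519). Fibroblasts and pericytes are textbook sources of Serping1 besides glia. The summed level of 8 meningeal and perivascular fibroblast markers was 49.73 to 55.83 FPKM in control and 53.14 to 63.4 in PS, highest in PS replicate 2 as for Serping1. Its largest part, Igf2, was alike in PS replicates 1 and 2, at 25.435 and 25.427 FPKM. Of the 7 fibroblast markers tested, 6 had positive log2 fold changes and 0 were called by limma, with 0 at an unadjusted p under 0.05. No fibroblast marker was at 0. The summed level of 6 pericyte markers, none at 0, was 51.89 to 58.12 in control and 50.46 to 61.97 in PS. Vtn and Rgs5 made up most of that sum. Of the 5 pericyte markers tested, 3 had negative and 2 positive log2 fold changes, with 0 called by limma. Of these, 2 did not overlap between groups, Rgs5 lower (-0.126) and Pdgfrb higher (0.175) in PS, beside 11.3% of all tested genes. The part of these cells in the Serping1 values was not tested.

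The rest of the pathway was covered by 48 other complement genes, of which 46 were matched and 14 tested. Of the 14, 0 were called by limma or by limma-voom, and 1, Cfp, had an unadjusted p under 0.05. Of these genes 7 had negative and 7 positive log2 fold changes, with a median of 0.003, equal to that of all tested genes. Among initiators and proteases, Masp1, a lectin pathway protease, and Colec12, a collectin scavenger receptor, had log2 fold changes of 0.054 and 0.12 (limma adjusted p = 0.984 and 0.93), and Colec12 was at 0.052 without PS replicate 2. The proteases that partner C1q were under the filter, with C1ra at 0.623 ± 0.06 FPKM in control and 0.5439 ± 0.143 in PS. C1s1 was at 0.2719 ± 0.0413 in control and 0.1981 ± 0.0362 in PS, and C2 at 0.9124 ± 0.0818 and 0.927 ± 0.122 (SD, n = 3 each). None of the 7 terminal pathway genes passed the filter, and C9 was listed at 0 in every library. In all, 19 of the 46 matched genes averaged under 0.1 FPKM.

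Cfp encodes properdin, which stabilises the C3-cleaving enzyme of the alternative pathway. It was at 1.632, 1.386 and 1.188 FPKM in control and 0.809, 0.97 and 0.886 in PS, from 77 to 106 and 53 to 64 reads. Each PS library was below each control library, as for 6.33% of the tested genes. The log2 fold change was -0.34 (SE 0.09, interval from -0.549 to -0.139, unadjusted p = 0.00426, limma adjusted p = 0.448). With sample weights it was -0.45 (limma adjusted p = 0.00814), in a fit that called 632 of the 12229 tested genes. C5ar1 and Cfp are also expressed by blood neutrophils and monocytes. The summed level of 10 leukocyte markers was 14.68, 5.35 and 57.76 FPKM in control and 30.7, 8.61 and 5.72 in PS, so it was highest in control replicate 3 and PS replicate 1 and overlapped between the groups. S100a8 and S100a9 made up most of it. All 4 of these markers that were tested had negative log2 fold changes (median -0.493), and 0 were called by limma, with 0 at an unadjusted p under 0.05. Cd3e, of T cells, was at 0 to 0.065 in each library. None of the 5 red-cell genes overlapped between the groups, beside 11.3% of all tested genes that did not overlap. Their summed level was 127.4 to 196.4 in control and 56.72 to 99.49 in PS. The sum of 10 endothelial markers was 164.3 to 196.3 in control and 135.7 to 146.0 in PS. Its largest part was Slc2a1, at 90.65 FPKM on average in control and 65.4 in PS. Of the 10 markers, 5 did not overlap between groups, beside 11.3% of all tested genes. Over the 10 markers, log2 fold changes ran from -0.737 to 0.055 (median -0.188). Only 1 was called: Vwf, of von Willebrand factor (log2 fold change -0.74, limma adjusted p = 0.0101). Without control replicate 1, PS replicate 1 or PS replicate 2 the Vwf call was lost (adjusted p = 0.0721, 0.0621 and 0.0683), as it was with no filter (0.21), while the log2 fold change stayed between -0.707 and -0.78. The part of blood and vessel RNA in the C5ar1 and Cfp values was not tested.

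Regulators limit complement on host cells. Clu, the fluid-phase regulator clusterin, averaged 360.8 ± 8.92 FPKM in control and 353.7 ± 25.7 in PS. Cr1l, the rodent membrane regulator Crry, had a log2 fold change of 0.11, and Cd59a, an inhibitor of the membrane attack complex, 0.18 (limma adjusted p = 0.93 and 0.934). Without PS replicate 2 the value of Cr1l was 0.057, and for Cd59a leaving out control replicate 2 gave 0.035 and control replicate 3 gave 0.289. Csmd1, a neuronal complement inhibitor, was at 3.304, 4.184 and 2.686 in control and 2.685, 2.901 and 2.23 in PS (log2 fold change -0.28, limma adjusted p = 0.844). Leaving out control replicate 2 gave -0.148 and control replicate 3 gave -0.394. Of the 8 regulators tested, 0 were called by limma, with 0 at an unadjusted p under 0.05. Among receptors, Itgam and Itgb2, the subunits of CR3, had log2 fold changes of 0.011 and -0.034, and the mitochondrial C1q-binding protein gene C1qbp 0.045 (limma adjusted p from 0.985 to 0.996).

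**Figure D4:**
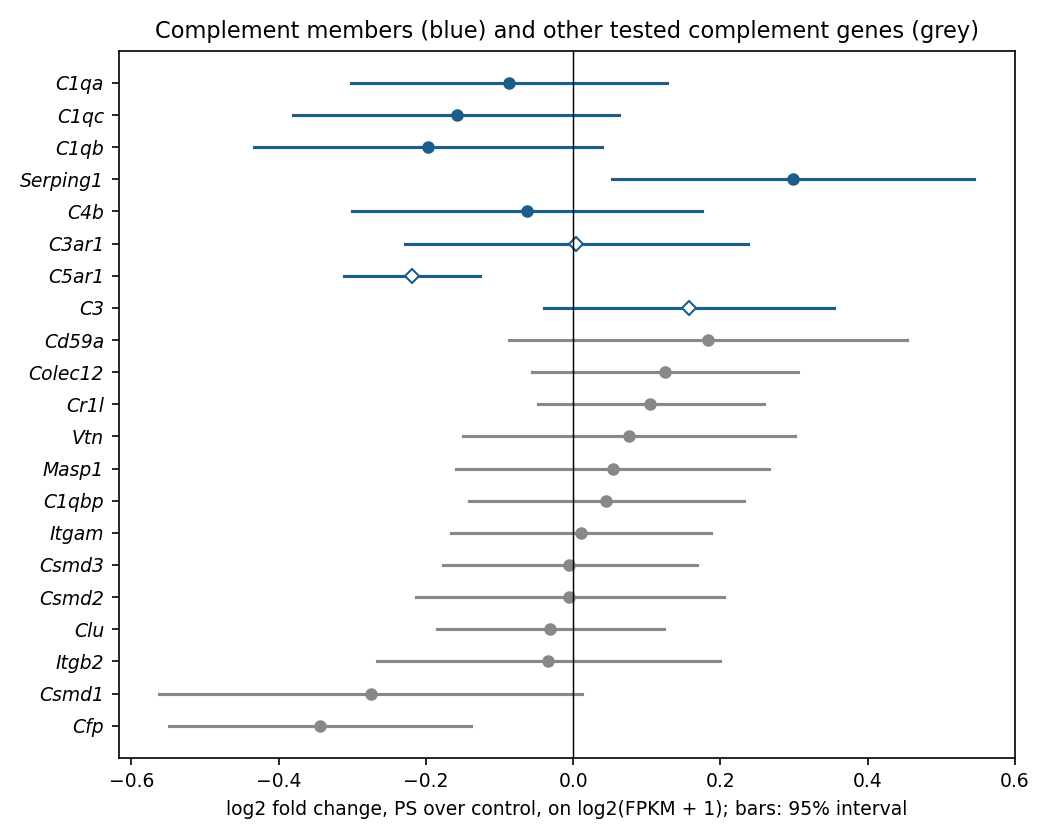
Log2 fold change of PS over control with its 95% interval for the 8 members (blue; open diamonds are the 3 genes under the filter, from the fit with no filter) and 13 of the 14 other complement genes tested (grey). The intervals of Serping1, C5ar1 and Cfp exclude 0 before adjustment for the number of genes, and none of the genes drawn passes after it.

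Genes that induce complement or act with it in engulfment were examined next. Of 13 tested inducers and signalling genes, 1 was called: Cebpd, an acute-phase transcription factor of the C/EBP family, fell from 5.003 ± 0.336 to 2.639 ± 0.345 FPKM (SD, n = 3; log2 fold change -0.73, limma adjusted p = 0.0153). That call was lost without control replicate 1, PS replicate 1 or PS replicate 2 (adjusted p = 0.122, 0.0933 and 0.113), and with no filter (0.238), while the log2 fold change stayed between -0.673 and -0.725. The cytokine genes Il1a, Il1b, Tnf and Il6 averaged 0.01004 to 0.1724 FPKM over both groups. Of 11 phagocytic partners, all tested, 0 were called by limma, 2 had an unadjusted p under 0.05 with a negative log2 fold change and 2 with a positive one.

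The genes most like the members over the 6 libraries were ranked by Pearson correlation of log2(FPKM + 1) among 7843 genes with a mean of at least 5 FPKM. For the mean of the C1q chains these were Sh3kbp1, Wsb2, Bok, Wdr13, B4galt2 and Cactin (r from 0.959 to 0.991). For C4b they were Nploc4, Orai2, Wdr13, Rela, Coa5 and Cactin (r from 0.942 to 0.972), so Wdr13 and Cactin stood in both sets. For Serping1 they were Galnt11, Nbl1, Lamb2, Adar, Mettl23 and Zer1 (r from 0.963 to 0.98). Such values are the highest among 7843 genes over 6 points and describe these libraries only.

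The reads behind the values numbered 39239183 to 40335590 per library, and 22153 to 22698 genes were above 0. Log2 values correlated between libraries at 0.9888 to 0.9966, and control replicate 2 stood away from the rest along the first principal component (42.3% of the variance). Without control replicate 2 the log2 fold changes of C1qa, C1qb and C1qc were -0.059, -0.149 and -0.104, and that of Serping1 was 0.40 (limma adjusted p = 0.383).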

How the data were processed

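Total RNA of whole mouse brain (6 libraries) was extracted with TRIzol and made into VAHTS Universal V6 libraries for sequencing, as described in the labels' protocols. For each library the authors deposited a table of FPKM. Per the submitters' processing notes, fastp, HISAT2, HTSeq, R 3.2.0 and build GRCm39 were used; the notes are without order or settings, and the strand setting and annotation are not given in the sources used here. Gene coordinates are therefore not given, except for promoters of RefSeq build GRCm38.p6.

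Samples were grouped by title, and all 6 were used. The filter kept 12229 of 27378 genes, those averaging at least 1 FPKM, and log2(FPKM + 1) was compared between groups with limma 3.58.1 in R 4.3.3 (two-sided, group as the only term, trended variance, 4 residual degrees of freedom, Benjamini-Hochberg adjustment, call at 0.05). An exact permutation of 3 against 3 cannot go below 0.1 and was not used. Whole reads were recovered from the FPKM steps using mitochondrial gene lengths: all 12229 tested genes came out whole within 0.02 reads in every library. Libraries of a group differed by more than sampling noise (chi-square per degree of freedom 10.47 to 40.91), so none is a copy. The fit was tested on simulated data.

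Same-numbered libraries of both groups deviated together (correlations 0.181, 0.185 and 0.161, each over 0.1), so the replicate number also served as a block in another fit; this pairing comes from the data, not the labels. Named genes were the 8 members, called genes of the fixed lists, up to 4 tested genes with the lowest p per complement list, genes needed to show which are near 0, and the 6 most alike in pattern. Clu, C1ra, C1s1, C2 and the uncalled cell type markers with values or directions were named outside this rule, after their values were seen, and 1 gene within the rule is left out here. Alternatives covered pseudocounts, filters, scalings, variance models, weights, the block, voom, a fold rule and each library left out. The members and lists were chosen with earlier results of these data known.

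The other lists gave these results. Of 10 astrocyte markers tested, 0 were called (median log2 fold change 0.035), as of 6 choroid plexus markers (0.16), 6 oligodendrocyte markers (0.23), 6 neuronal markers (0.006) and 2 tested border macrophage markers (0.11). In these lists limma gave an unadjusted p under 0.05 for 1 astrocyte and 1 oligodendrocyte marker.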

Additional observations from a re-analysis of the deposited data

How the results depend on the processing

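No complement member or other complement gene was called under any alternative run except sample weights, which called 1 of each (Serping1 and Cfp). The count over all genes was 20, and 9 with a mean FPKM of at least 5, 1 with no filter, 632 with sample weights, 48 with the replicate block, 44 by unadjusted p and a 1.5-fold rule, and 0 to 66 when leaving out 1 library (0 without PS replicate 2, 2 without control replicate 1 or PS replicate 1, 66 without control replicate 3). With the block no member changed its call. Of the inducers and partners 1, Cebpd, was called. The count was 0 with a mean of at least 5 FPKM, a filter that removed Cebpd, and 0 with no filter. It was 2 with sample weights, and 0 to 1 when leaving out 1 library. The cause of the other changes was not tested. The difference between C1q and microglial markers, -0.22, ran from -0.283 to -0.18 when leaving out 1 library.

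Values near 0 turned sign in some settings. With sample weights C4b was 0.055 and Itgb2 0.068, and with quantile normalization C3ar1 was -0.009. The sign also turned without PS replicate 1 for C1qa, C4b, Masp1, Itgb2 and Itgam, without control replicate 1 for C3ar1 and Itgam, without control replicate 2 for C1qbp and Itgb2, without PS replicate 2 for Itgb2 and without PS replicate 3 for C3ar1. With 1 library left out, the values ran from -0.171 to 0.023 for C1qa, -0.173 to 0.021 for C4b, -0.073 to 0.057 for C3ar1, -0.012 to 0.147 for Masp1, -0.034 to 0.109 for C1qbp, -0.133 to 0.017 for Itgb2 and -0.05 to 0.05 for Itgam. Depth limits C3, C3ar1 and C5ar1, each with 30 to 137 reads per library: with pseudocounts of 0.5 and 0.1 the log2 fold change of C5ar1 was -0.34 and -0.61, and that of C3 0.25 and 0.51.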
